A study of Mus musculus with 13 samples.

Results

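The 10 transcripts described here belong to the NRF2 antioxidant system, to iron storage and to the defence against ferroptosis, and they were taken by transcript ID from the 244939 transcripts in each deposited table. They are NFE2L2 (ENST00000397062.8), KEAP1 (ENST00000171111.10), NQO1 (ENST00000320623.10), HMOX1 (ENST00000216117.9), GCLM (ENST00000370238.8), SRXN1 (ENST00000381962.4), SLC7A11 (ENST00000280612.9), GPX4 (ENST00000354171.13), FTH1 (ENST00000273550.12) and FTL (ENST00000331825.11). Each ID stands for a single transcript of its gene, so reads that the authors' model gave to other transcripts of the gene are not in these values. All 10 passed the low-count filter.

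RNA came from 13 tumours of MDA-MB-231, a long-established cell line from a human triple-negative breast cancer, grown in Matrigel in mammary gland 4 on the right side of female NSG mice aged 12 to 13 weeks at injection. The mice were gavaged daily with a vehicle of DMSO (40%) in polyethylene glycol (60%; 7 tumours) or with OCA at 30 mg/kg in that vehicle (6 tumours), over 14 days of growth per the series text. OCA stands for obeticholic acid, a synthetic bile acid that switches on FXR, and the series title asks about its effect on tumour burden. The labels call the NSG mice immunocompetent, although that strain lacks mature lymphocytes. The line and its label were not checked against marker genes here, since the tables hold no gene names. In bulk tumour RNA, fewer cells of a type and less RNA per cell cannot be told apart, and reads of mouse host cells were not separated from human reads here.

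NRF2, encoded by NFE2L2, is a transcription factor that switches on antioxidant genes. KEAP1 holds NRF2 in the cytoplasm and hands it to a ubiquitin ligase, and oxidants or electrophiles that modify KEAP1 release it, so NRF2 activity is set largely at the protein level. Its targets include quinone and haem enzymes, the glutathione supply and ferritin. Ferroptosis is an iron-dependent death by lipid peroxidation, which GPX4 opposes with glutathione made from cystine that SLC7A11 imports.

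The libraries held 34015674 to 50596490 estimated reads, and the 3 libraries under 40000000 were all vehicle (replicates 2, 3 and 5). Vehicle replicates 1 and 4 and OCA replicate 2 stood apart on the first principal component, at scores of 216 to 231 against -126 to -21.3 in the other 10 libraries. The library numbers in the labels fall into a lower series (3 vehicle and 4 OCA) and an upper series (4 vehicle and 2 OCA), and what the numbers record is not given. The 3 libraries under 40000000 reads were all in the upper series, so depth and label series cannot be fully told apart in vehicle tumours. Pairs of libraries correlated at r = 0.857 to 0.911 across transcripts, so no pair was close to identical. The 10 transcripts took 0.111% ± 0.0189 of the reads in vehicle tumours (SD, n = 7) and 0.113% ± 0.0114 in OCA tumours (SD, n = 6).

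No transcript of the set differed between OCA and vehicle tumours past the adjusted threshold. SLC7A11, the cystine importer, had the largest estimated difference, 1.64-fold higher in OCA tumours, and was alone among the 10 at an unadjusted p under 0.05. For 7 of the 10 (NFE2L2, KEAP1, GCLM, SRXN1, GPX4, FTH1 and FTL) the 95% interval lay within 1.5-fold in either direction. The intervals of NQO1, HMOX1 and SLC7A11 extended beyond that and reached past 2-fold, up to 3.81-fold, 2.12-fold and 2.46-fold. All 10 intervals pool the label series, between which the estimates of NFE2L2, NQO1, HMOX1, GPX4, FTH1 and FTL differed in sign. For GPX4 the log2 fold change was -0.36 in the lower and 0.47 in the upper series.

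By edgeR's quasi-likelihood test over 74973 transcripts, 0 of the 10 members and 0 of all transcripts (0%) had an adjusted p under 0.05. At an unadjusted p under 0.05 there was 1 member, against a background of 2.77% of all transcripts tested (1.37% higher and 1.4% lower in OCA) and 4.86% of the 24412 transcripts at least as abundant as the lowest member. Direction was evenly divided, with 5 members higher and 5 lower in OCA, where 51% of all tested transcripts were higher. The median log2 fold change of the members was -0.04, against 0.01 over all transcripts tested. No member had groups of libraries that did not overlap in CPM (reads relative to TMM-scaled library sizes), which was seen for 0.123% of all transcripts tested. DESeq2 called 0 of the 9 members it gave an adjusted p (it gave NQO1 none) and 12 of the 19736 transcripts it gave an adjusted p (0.0608%), and limma-voom called 0 members and 0 transcripts. Each put 1 member, SLC7A11, at an unadjusted p under 0.05, against 4.18% of all transcripts with DESeq2 and 4.94% with limma-voom.

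**Figure D1:**
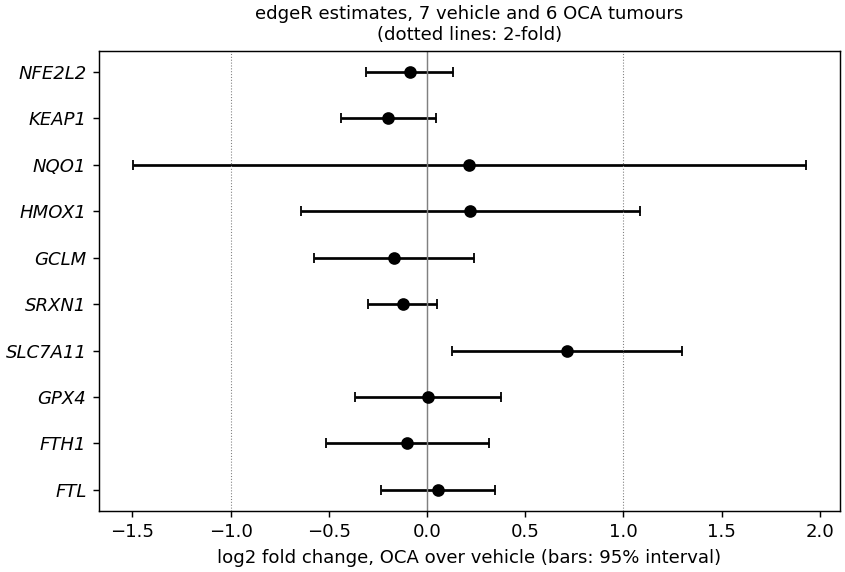
Estimated log2 fold change of each transcript (horizontal axis, OCA over vehicle) with its 95% interval from edgeR, in 7 vehicle and 6 OCA tumours. The interval of SLC7A11 alone excludes 0, from 0.13 to 1.30, and NQO1 has the widest interval, from -1.50 to 1.93.

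Levels are compared as deposited TPM, which is per transcript length. FTL, the ferritin light chain, was the highest in all 13 libraries, at a mean of 1334.1 ± 224 TPM (SD over 13 libraries), 43.4-fold above the next transcript. Below it, HMOX1 (30.7 ± 16.2 TPM), GPX4 (27.8 ± 5.75), SRXN1 (27.1 ± 2.84), KEAP1 (25.1 ± 3.43), FTH1 (21.6 ± 5.10) and NFE2L2 (17.3 ± 2.03) formed an order in which no neighbours were separated by more than the larger of their SDs. Within libraries, HMOX1 was above GPX4 in 8 of 13, GPX4 above SRXN1 in 7 and SRXN1 above KEAP1 in 10. KEAP1 was above FTH1 in 10 and FTH1 above NFE2L2 in 11. The place of FTH1 is less certain, because both ferritin chains have many near-identical pseudogene copies in the human genome. GCLM followed at 3.18 ± 0.732 TPM, 5.43-fold below NFE2L2 and below it in all 13 libraries. NQO1 (1.79 ± 1.09 TPM) and SLC7A11 (1.53 ± 0.740 TPM) were the lowest and were not separated from each other, with NQO1 the higher in 7 of 13 libraries.

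**Figure D2:**
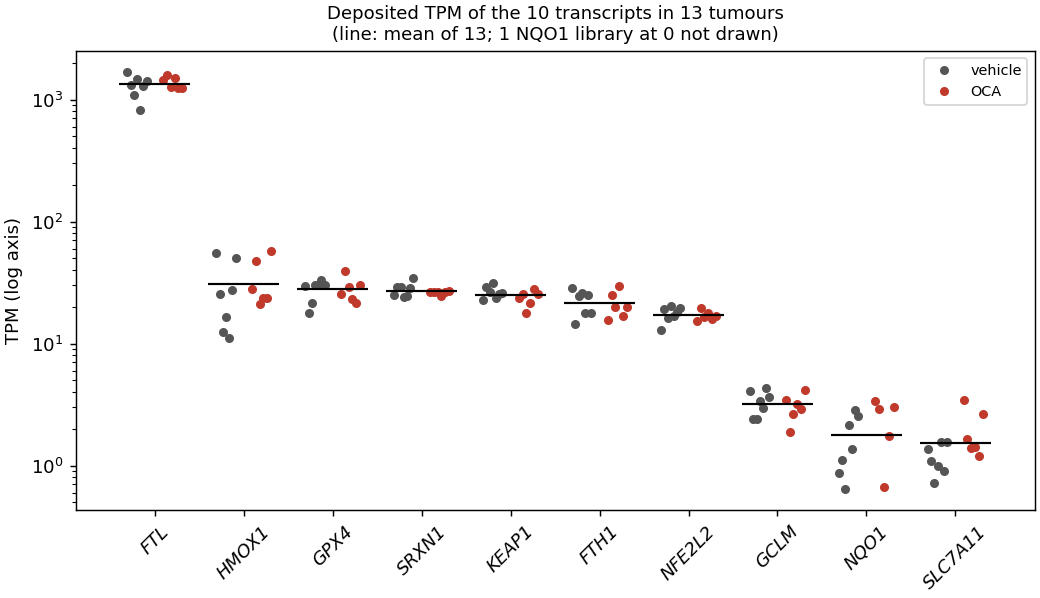
Deposited TPM of each transcript (vertical log axis) in every library, ordered by the mean of 13 libraries, which is the black line; grey points are vehicle and red points OCA, and the NQO1 library at 0 is not drawn. FTL lies at or above 818 TPM in every library, while GCLM, NQO1 and SLC7A11 reach at most 4.30, 3.37 and 3.43 TPM.

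The regulators showed no called difference and varied less between libraries than most transcripts of like level (NFE2L2) or about as much (KEAP1), at fitted coefficients of variation of 16.0% and 16.6%. NFE2L2 measured 28.7, 42.4 and 46.0 CPM (lowest, median and highest) in vehicle tumours and 34.7, 36.5 and 43.4 CPM in OCA tumours. The vehicle range held the whole OCA range, and vehicle replicate 1 was the low library. Its log2 fold change was -0.09 (SE 0.10, edgeR unadjusted p = 0.413, adjusted p = 1), with an interval of 0.807-fold to 1.10-fold. KEAP1, the substrate adaptor that marks NRF2 for degradation, measured 53.1, 63.6 and 75.1 CPM in vehicle and 40.2, 57.6 and 64.9 CPM in OCA tumours. The OCA libraries reached lower, chiefly through OCA replicate 3 at 40.2, and 5 of 6 lay under the vehicle mean. KEAP1 had a log2 fold change of -0.20 (SE 0.11, edgeR unadjusted p = 0.103, adjusted p = 1), with an interval of 0.739-fold to 1.03-fold. The KEAP1 to NFE2L2 ratio of TPM within a library was 1.51 ± 0.148 in vehicle (SD, n = 7) and 1.40 ± 0.240 in OCA tumours (SD, n = 6). That difference is smaller than the SD of either group, and KEAP1 exceeded NFE2L2 in every library (lowest ratio 1.08, OCA replicate 3).

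The targets that handle quinones and haem were the most variable. NQO1, a quinone reductase much used as a readout of NRF2, measured 1.55, 3.28 and 6.91 CPM in vehicle tumours and 0, 5.37 and 7.86 CPM in OCA tumours. OCA replicate 3 held 0 estimated reads, which allows up to 3 reads or 0.0639 CPM from counting error, while the other 12 libraries held 57.9 to 354 reads. OCA libraries were thus both the lowest and the highest. NQO1 had a log2 fold change of 0.22 (SE 0.79, edgeR unadjusted p = 0.790, adjusted p = 1), and the interval ran from 0.354-fold to 3.81-fold. The direction was not stable, since limma-voom gave -1.04. Without OCA replicate 3, the library at 0 reads, the log2 fold change was 0.49 (edgeR unadjusted p = 0.303). Without OCA replicate 1 it was -0.011 (edgeR unadjusted p = 0.990). How far the sharing of reads among transcripts of the gene moves the NQO1 values was not tested.

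HMOX1, haem oxygenase, which breaks down haem and frees its iron, measured 15.3, 34.2 and 73.2 CPM in vehicle and 26.9, 34.3 and 75.7 CPM in OCA tumours. High libraries occurred in both groups, at 73.2 and 65.4 CPM in vehicle replicates 1 and 7 and at 75.7 and 63.5 CPM in OCA replicates 6 and 2. The medians were nearly equal and the ranges overlapped over most of their length. HMOX1 had a log2 fold change of 0.22 (SE 0.40, edgeR unadjusted p = 0.589, adjusted p = 1), with an interval of 0.641-fold to 2.12-fold. Its fitted coefficient of variation between libraries of a group, 50.0%, exceeded that of 97.9% of the 3338 transcripts within 0.5 log2 CPM of its level, whose median was 18.4%. HMOX1 held 1868.5 reads per library on average. Among the vehicle libraries, the 3 under 40000000 reads included the lowest pair, replicates 5 and 3 at 15.3 and 17.1 CPM. Without these 3 libraries the log2 fold change of HMOX1 turned to -0.16 (edgeR unadjusted p = 0.687).

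**Figure D3:**
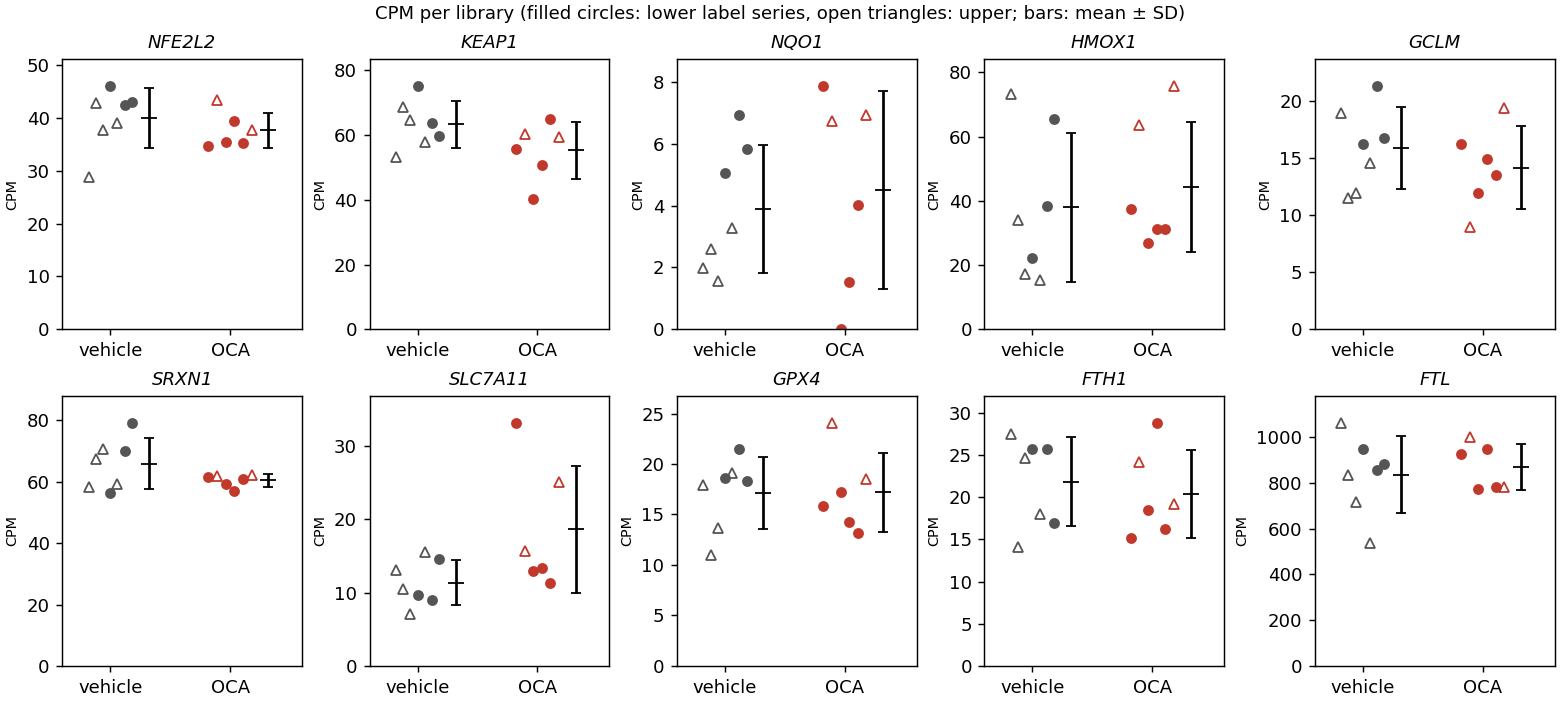
CPM of each transcript in every library (vertical axis from 0), with vehicle in grey and OCA in red; filled circles are the lower label series, open triangles the upper, and bars the mean ± SD of 7 vehicle and 6 OCA libraries. HMOX1 and NQO1 scatter widely in both groups, and SRXN1 lies between 56.2 and 79.3 CPM in all libraries. For SLC7A11, 3 OCA libraries lie above every vehicle library, the lowest of them narrowly (15.7 against 15.6 CPM).

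In the glutathione and thiol group, the estimate for SLC7A11 was higher in OCA tumours and those for GCLM and SRXN1 were lower, none past the adjusted threshold. SLC7A11 encodes the light chain of the exchanger that brings in cystine for glutathione in return for glutamate. It measured 13.1, 10.5, 7.14, 9.63, 15.6, 9.01 and 14.6 CPM in vehicle replicates 1 to 7 and 33.2, 15.7, 13.0, 13.4, 11.4 and 25.1 CPM in OCA replicates 1 to 6. Each of the 6 OCA values exceeded the vehicle mean of 11.4 CPM and 3 exceeded every vehicle value, while OCA replicates 3, 4 and 5 fell within the vehicle range. OCA replicate 2, at 15.7 CPM, only narrowly exceeded vehicle replicate 5, at 15.6 CPM. Vehicle tumours averaged 11.4 ± 3.13 CPM (SD, n = 7) and OCA tumours 18.6 ± 8.64 CPM (SD, n = 6).

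The log2 fold change of SLC7A11 was 0.71 (SE 0.27), an interval of 1.09-fold to 2.46-fold. Its edgeR unadjusted p was 0.0209 and its adjusted p 1, so the difference did not pass the test over all transcripts. A two-sided exact permutation test of its mean log2(CPM + 0.5) over all 1716 splits gave 0.0414, unadjusted, among 10 such tests. The 2 highest libraries weighed on it. Without OCA replicate 1 the estimate was 0.47 (edgeR unadjusted p = 0.0680), and without OCA replicate 6 it was 0.61 (edgeR unadjusted p = 0.0506). The unadjusted call was also lost without the 3 vehicle libraries under 40000000 reads (0.69, edgeR unadjusted p = 0.0609) and without the 3 libraries apart on the first component (0.76, edgeR unadjusted p = 0.0509). The log2 fold change was positive in all 28 alternatives, with adjusted p from 0.490 to 1 where a fit gave one. Reads on transcripts of at least 4000 bases made up 26.6% ± 0.564 of vehicle libraries (SD, n = 7) and 28.0% ± 0.743 of OCA libraries (SD, n = 6), and SLC7A11 is the longest member at 9645 bases. Less the median of its length class the log2 fold change of SLC7A11 was 0.63. The part of transcript length in the difference was not tested further.

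GCLM, the modifier subunit of the enzyme that limits glutathione synthesis, measured 11.5, 16.2 and 21.3 CPM in vehicle and 8.95, 14.2 and 19.5 CPM in OCA tumours. The ranges overlapped from 11.5 to 19.5 CPM, and OCA replicate 2 was the lowest library. GCLM had a log2 fold change of -0.17 (SE 0.19, edgeR unadjusted p = 0.394, adjusted p = 1), an interval of 0.671-fold to 1.18-fold. SRXN1, sulfiredoxin, which restores overoxidised peroxiredoxins, measured 56.2, 67.4 and 79.3 CPM in vehicle and 56.9, 61.3 and 62.3 CPM in OCA tumours. Every OCA library lay under the vehicle mean of 65.9 CPM but inside the vehicle range. SRXN1 had a log2 fold change of -0.12 (SE 0.08, edgeR unadjusted p = 0.155, adjusted p = 1), an interval of 0.811-fold to 1.04-fold. SRXN1 had the smallest fitted coefficient of variation of the 10, 13.5%, under the 17.2% median of transcripts at its level.

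GPX4, the selenoenzyme that reduces lipid hydroperoxides in membranes, measured 11.0, 18.3 and 21.5 CPM in vehicle and 13.1, 16.5 and 24.1 CPM in OCA tumours. The group means were the same to 3 digits, at 17.2 ± 3.59 CPM (SD, n = 7) and 17.2 ± 3.91 CPM (SD, n = 6), and OCA replicate 2 was the highest library. The log2 fold change was 0.00 (0.00314 unrounded, SE 0.17, edgeR unadjusted p = 0.986, adjusted p = 1). Its interval spans 0.774-fold to 1.30-fold. This pooled estimate joins opposite ones, at -0.36 in the lower and 0.47 in the upper label series.

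The ferritin chains, which build the shell that stores iron, also showed no called difference. FTH1, the heavy chain that oxidises iron on entry, measured 14.1, 24.7 and 27.5 CPM in vehicle and 15.2, 18.9 and 28.8 CPM in OCA tumours. Its log2 fold change was -0.10 (SE 0.19, edgeR unadjusted p = 0.614, adjusted p = 1), an interval of 0.701-fold to 1.24-fold. For FTH1, 4 OCA libraries lay below the vehicle mean, and the highest of all 13 was OCA replicate 4. FTL, the light chain that aids mineral formation, measured 538, 856 and 1061.9 CPM in vehicle and 771, 854 and 999 CPM in OCA tumours. The medians were alike and the OCA range lay inside the vehicle range, whose low end was vehicle replicate 5. The log2 fold change of FTL was 0.06 (SE 0.13, edgeR unadjusted p = 0.682, adjusted p = 1), an interval of 0.850-fold to 1.27-fold.

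The FTH1 to FTL ratio of TPM was 0.0174 ± 0.00437 in vehicle (SD, n = 7) and 0.0153 ± 0.00305 in OCA tumours (SD, n = 6). The groups differed by less than either SD, and the ratio was between 0.0107 and 0.0224 in all 13 libraries. Both chains have many near-identical pseudogene copies in the human genome, so the level of FTH1 relative to FTL is uncertain in these tables.

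Between the label series, 6 of the 10 estimates (NFE2L2, NQO1, HMOX1, GPX4, FTH1 and FTL) differed in sign. In the lower series NFE2L2 had a log2 fold change of -0.27 (SE 0.09, edgeR unadjusted p = 0.0219) and GPX4 one of -0.36 (SE 0.14, unadjusted p = 0.0370), and for both every OCA library lay under every vehicle library. NFE2L2 measured 34.7 to 39.4 CPM in the 4 OCA libraries and 42.4 to 46.0 CPM in the 3 vehicle libraries. GPX4 measured 13.1 to 17.2 CPM against 18.3 to 21.5 CPM. So 2 of 10 members had an unadjusted p under 0.05 in that series, against 2.84% of all transcripts, and 2 of 10 had groups that did not overlap, against 5.46%.

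The upper series held all 3 vehicle libraries under 40000000 reads. In that series the same 2 transcripts pointed the other way, at 0.13 for NFE2L2 (SE 0.18, edgeR unadjusted p = 0.498) and 0.47 for GPX4 (SE 0.27, unadjusted p = 0.126). NQO1 was higher there in both OCA libraries, at 6.72 and 6.93 CPM against 1.55 to 3.28 CPM in 4 vehicle libraries (log2 fold change 1.55, SE 0.36, edgeR unadjusted p = 0.0046). The 3 vehicle libraries of the lower series measured 5.05 to 6.91 CPM, so NQO1 also differed between the vehicle libraries of the 2 series. In the upper series NQO1 was the 1 of 10 members at an unadjusted p under 0.05, where 3.24% of all transcripts were. NQO1 and SLC7A11 had groups that did not overlap, where 12.2% of all transcripts did. For SLC7A11 the margin was narrow, at 15.7 CPM in OCA replicate 2 against 15.6 CPM in vehicle replicate 5. The adjusted p of every member was 1 in both series.

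SLC7A11 was higher in OCA on average in both series, by a log2 fold change of 0.68 (SE 0.43, edgeR unadjusted p = 0.156) in the lower and 0.82 (SE 0.35, unadjusted p = 0.0584) in the upper. In the lower series OCA replicate 1 measured 33.2 CPM. OCA replicates 3, 4 and 5 of that series, at 13.0, 13.4 and 11.4 CPM, lay within its vehicle range of 9.01 to 14.6 CPM. HMOX1 changed sign, from -0.40 (SE 0.34) in the lower to 0.997 (SE 0.64) in the upper series. The difference of effects between the series was tested with an interaction term over all transcripts. GPX4 alone of the 10 had an unadjusted p under 0.05 (upper minus lower 0.84, SE 0.29, edgeR unadjusted p = 0.0153, adjusted p = 1), against 3.93% of all transcripts. For NFE2L2 the unadjusted p was 0.0592 and for SLC7A11 0.823. With the series as a covariate the log2 fold change of SLC7A11 was 0.74 (edgeR unadjusted p = 0.0243).

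**Figure D4:**
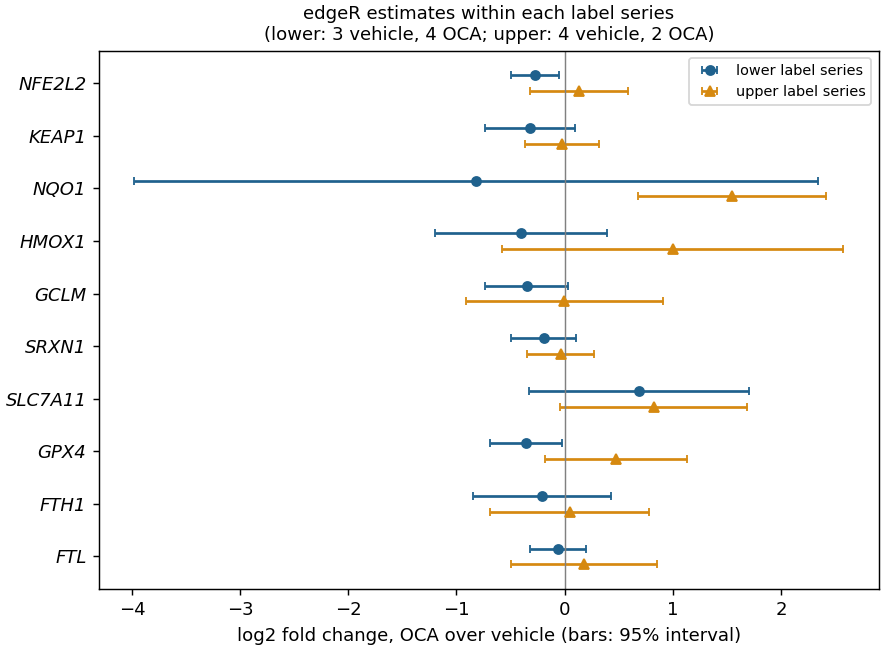
Estimated log2 fold change of each transcript (horizontal axis, OCA over vehicle) with its 95% interval from edgeR, fitted in the lower label series (blue circles) and the upper series (orange triangles). SLC7A11 lies right of 0 in both, at 0.68 and 0.82, with intervals that include 0. GPX4 lies at -0.36 in the lower and 0.47 in the upper series.

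How the members varied together was examined over the 45 pairs on log2(CPM + 0.5), after the mean of each treatment group was subtracted. For r within a label series, the group means were those of that series. Such values rest on few libraries, 3 vehicle and 4 OCA in the lower and 4 vehicle and 2 OCA in the upper series. They were not tested, nor were those within a treatment group. By permutation tests, 0 pairs passed an adjusted threshold of 0.05 with Pearson's r or with Spearman's rho, and 2 had an unadjusted p under 0.05 with each measure. Of the pairs, 29 had a positive and 16 a negative r.

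The pair with the highest r was KEAP1 and NQO1 (r = 0.710, permutation p = 0.00767, adjusted p = 0.345; rho = 0.445, permutation p = 0.128, adjusted p = 0.642). Without the 2 libraries farthest from the median of KEAP1, vehicle replicate 1 and OCA replicate 3, r was 0.273. The 2 libraries were left out together, so the part of each was not told apart. OCA replicate 3 is the library with 0 estimated reads of NQO1. For this pair r was 0.891 among OCA and 0.248 among vehicle libraries, and it was 0.749 in the lower and -0.0729 in the upper series. HMOX1 and FTL, an enzyme that frees iron and a chain that stores it, followed (r = 0.619, permutation p = 0.0200, adjusted p = 0.449; rho = 0.626, permutation p = 0.0245, adjusted p = 0.561). Without vehicle replicates 1 and 7 their r was 0.494, and it was -0.0563 in the lower and 0.843 in the upper series. For HMOX1 and FTL r was 0.753 among vehicle but 0.192 among OCA libraries. NQO1 and SLC7A11 had as high a rho and a lower r (rho = 0.626, permutation p = 0.0249, adjusted p = 0.561; r = 0.481, permutation p = 0.0928, adjusted p = 0.752). Without vehicle replicate 3 and OCA replicate 3 their r was 0.324, and it was 0.533 in the lower and 0.710 in the upper series. It was 0.192 among vehicle and 0.592 among OCA libraries. NFE2L2 and KEAP1 had r = 0.497 (permutation p = 0.0865, adjusted p = 0.752) and rho = 0.451 (permutation p = 0.124, adjusted p = 0.642). Without vehicle replicates 4 and 1 their r was 0.210, and it was 0.0948 in the lower and 0.828 in the upper series. Their r was 0.784 among vehicle and 0.229 among OCA libraries. With the 8 members other than KEAP1, NFE2L2 had r between -0.29 and 0.35. The ferritin chains themselves had r = 0.405 (permutation p = 0.174, adjusted p = 0.752; rho = 0.478, permutation p = 0.102, adjusted p = 0.642), with 0.478 without the 2 farthest libraries and 0.381 and 0.435 in the lower and upper series.

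**Figure D5:**
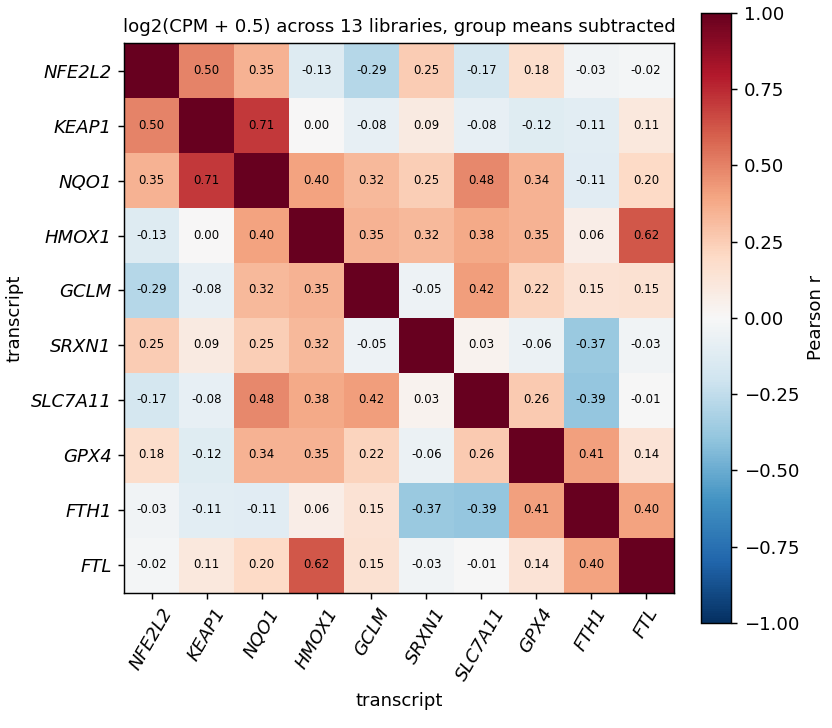
Pearson's r between each pair of the 10 transcripts (both axes) across 13 libraries on log2(CPM + 0.5), with treatment group means subtracted; red is positive and blue negative. The highest values are 0.71 for KEAP1 with NQO1 and 0.62 for HMOX1 with FTL, and the lowest is -0.39 for SLC7A11 with FTH1.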

How the data were processed

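Total tumour RNA with an integrity number above 6 was sequenced in paired reads of 150 bases, per the labels. Tools named in the submitters' processing notes are FastQC, STAR, Salmon and DESeq2, with no versions, and the build is GRCh38.p14; neither the transcript annotation nor the handling of mouse reads is given in the sources used here. The deposited tables hold, per the file headers, estimated counts of reads and TPM per transcript, with its length. Reads matching several transcripts are shared by Salmon's model, so a transcript's spread holds assignment error too.

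Counts were rounded to whole numbers. Low transcripts were removed with filterByExpr (minimum count 10, minimum total 15), libraries were TMM-scaled, and the treatment effect was tested two-sided with edgeR 4.0.16 (robust quasi-likelihood), adjusted by Benjamini-Hochberg over all transcripts, at a threshold of 0.05 (limma 3.58.1, DESeq2 1.42.0, R 4.3.3, SciPy 1.17.1). Standard errors are the log2 fold change over the square root of F, and intervals are 95%, unadjusted. TPM was used for levels and, as log2(TPM + 0.1), in an alternative. Correlations used 100000 permutations; exact tests used all 1716 splits.

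The 10 members and all lists were chosen with earlier results of these data known. All members are named, by rule. The list of other pathway genes and the cell type markers were not analysed here, because IDs are not paired with names beyond the members, whose names came with the list of IDs. Human genome coordinates and sequences were not used here. Libraries have separate numbers in the labels and were treated as separate mice. Alternatives covered the test, scaling, filter, label series, libraries left out, TPM and length. Non-overlap within series, the exact test and the interaction term were added after seeing the data.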

Additional observations from a re-analysis of the deposited data

How the results depend on the processing

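The count of 0 members past the adjusted threshold held in all 26 refits. The count of 0 transcripts past it became 12 with DESeq2, 2 with limma on log2(TPM + 0.1), 1 without the 3 libraries apart on component 1, and 0 to 1 with single libraries left out (1 without vehicle replicate 7 and 1 without OCA replicate 6). The 1 member at an unadjusted p under 0.05 became 2 in the lower label series (NFE2L2 and GPX4; 2.84% of all transcripts), 0 without the 3 vehicle libraries under 40000000 reads (2.57%), and 0 to 1 with single libraries left out (0 without OCA replicate 1 or 6). The count stayed at 1 in the upper series, where the member was NQO1 (3.24% of all transcripts), and without the 3 libraries apart on component 1, where it was SRXN1 (3.4%). Members whose groups do not overlap went from 0 to 2 in the lower and 2 in the upper series, and from 0 to 0 with single libraries left out. The FTH1 to FTL ratio was 0.0267 in vehicle and 0.0234 in OCA tumours from CPM, which is not per length.

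SLC7A11, KEAP1, GCLM and SRXN1 kept their direction in all 28 alternatives. GPX4, near 0, turned to -0.00271 with DESeq2, -0.00379 with limma-voom, -0.00243 with RLE scaling, -0.00256 with library totals, -0.36 in the lower series, -0.079 without the 3 libraries on component 1 and -0.15 without the 3 shallow vehicle libraries. NQO1 turned to -1.04 with limma-voom, -0.82 in the lower series, -0.13 without the shallow libraries, -0.27 on log2(TPM + 0.1) and -0.15 as a difference of mean log2(CPM + 0.5). HMOX1 turned to -0.40 in the lower series and -0.16 without the shallow libraries, and FTL to -0.062 and -0.11. NFE2L2 turned to 0.13 and FTH1 to 0.048 in the upper series. With single libraries left out the ranges were -0.11 to 0.071 for GPX4 (negative without vehicle replicate 2 or 3 or OCA replicate 2 or 6), -0.011 to 0.49 for NQO1 (negative without OCA replicate 1) and -0.029 to 0.12 for FTL (negative without vehicle replicate 5). The lower-series fit also leaves out the 3 shallow vehicle libraries, so turns in these 2 settings are not independent. The cause of these turns was not tested. DESeq2 gave NQO1 no adjusted p. No paired analysis was possible because replicate numbers follow accession order and the labels pair no libraries. Depth was lowest for NQO1, at a mean of 188 reads (counting error 7.29%). Its fitted coefficient of variation between libraries was 96.8%, with the library at 0 reads included.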
